A study of Homo sapiens with 12 samples.

Results

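The comparison concerns the libraries labelled PC3, a human prostate cancer line established from a bone metastasis, sorted by how brightly they fluoresced with green fluorescent protein, GFP. According to the labels, the top 10% in brightness (GFP high, 3 libraries) stood for Wnt/β-catenin activity and the bottom 10% (GFP low, 3 libraries) for its absence. All cells grew in DMEM with fetal bovine serum, and the labels name no other agent. The construct that carries GFP, its promoter, the number of clones behind the line and whether the replicates were grown as separate cultures are not given in the labels. A p-value therefore measures only the spread between libraries, which may be technical. A gene entered the comparison when its log2 value was at least 4 in at least 3 of the 6 libraries, and 8027 of the 18950 genes in the table did so. Levels are in CPM, that is, counts relative to the size of each library, converted back from the deposited log2 scale, on which the minimum stands for 16 CPM. A difference is the mean log2 value of GFP high minus that of GFP low, ± its standard error. The 6 libraries of the line DU145, sorted in the same way, entered the model for the spread and for the difference between lines only. Standard errors and p-values therefore also rest on the spread within the DU145 groups. Just inside the minimum lay RMI1 and PAX8-AS1, each at 4.0006 in its third-highest library, and just outside lay TTLL3 at 3.998 and SLC39A11 at 3.996. Of the genes kept, 7333 reached the minimum in all 6 libraries, 41 were kept through the GFP high libraries alone and 72 through the GFP low libraries alone.

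In canonical Wnt signaling a secreted Wnt ligand binds a Frizzled receptor together with LRP5 or LRP6, which stops the destruction complex of AXIN, APC and GSK3 from marking β-catenin for degradation. β-catenin then enters the nucleus and displaces TLE corepressors from the TCF and LEF factors at their DNA sites, and genes such as AXIN2, LEF1 and RNF43 are switched on, several of them as negative feedback. A reporter of this kind usually carries repeated TCF/LEF sites in front of a fluorescent protein. In prostate cancer the pathway is known for its part in bone metastasis, in growth without androgen and in stem-like states.

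The identity of the cells was checked first. EPCAM, an epithelial adhesion gene, had 4 estimated counts in the 6 libraries together, E-cadherin (CDH1) had 5, and KRT19, FOLH1 and TMPRSS2 were listed at 0. KLK3, which encodes PSA, had 1 count. The simple-epithelial keratin KRT18 stood at 338 to 486 CPM, KRT8 at 16.3 to 28.3 CPM, the mesenchymal gene VIM at 1437 to 1900 CPM and N-cadherin (CDH2) at 61.7 to 86.0 CPM. PC3 is known to have lost both copies of CTNNA1, which encodes α-catenin, yet CTNNA1 stood at 377 to 417 CPM. These levels go against the label, and the libraries are therefore named by their label only. GLUL, which encodes glutamine synthetase and is used by most cells, had 5 counts here and stood at 64.9 to 81.0 CPM in the DU145 libraries. Whether so low a level is a failed estimate was not tested. Of the stromal markers, COL1A2, LUM and PDGFRA were listed at 0, PTPRC, which marks leukocytes, had 2 counts and the endothelial gene PECAM1 had 4.

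Total estimated counts ran from 15499672 to 21528810, so a gene with a count of 0 could lie as high as 0.139 CPM in the deepest and 0.194 CPM in the shallowest library (counting error only). GFP low replicates 2 and 3 stood apart in the number of genes with a count, 15455 and 15459 against 14131 to 14373 in the other 4 libraries. In its profile only replicate 2 did. It differed from GFP low replicates 1 and 3 by 26.2 and 49.3 times the variance that sampling gives, while replicates 1 and 3 differed by 7.52 times and the GFP high libraries by 6.57 to 14.5 times. Deviations followed GC content with a Spearman correlation of 0.70 in GFP low replicate 2, -0.56 in GFP low replicate 3 and -0.40 in GFP high replicate 3, across genes. What set them apart was not tested. Results below are given without GFP low replicates 2 and 3 where that ends a call. That run leaves GFP low replicate 1 alone against 3 GFP high libraries. A call can therefore end through lost precision, even where the levels stay apart. Whether these 2 libraries or the smaller number ended a call cannot be told apart. Bulk RNA cannot tell fewer cells of a type from less RNA per cell.

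Between the sorted populations 686 of 8027 genes passed (limma adjusted p under 0.05, 8.55%), 312 higher in GFP high (3.89%) and 374 lower (4.66%). A further count, of genes whose 3 high and 3 low values did not overlap, came to 2402 (29.9%), and all 686 were among them. A lack of overlap, described below for some genes, therefore adds nothing to a call. Most differences were small. The median size among the genes that passed was 1.37-fold, 80.5% of all genes kept lay within 1.2-fold, and 28 higher and 32 lower genes passed with at least a 2-fold difference. With the replicate number as a block, 1063 genes passed (441 higher, 622 lower), 678 of them shared. Leaving out GFP high replicates 1, 2 and 3 in turn gave counts of 310, 314 and 414, leaving out GFP low replicate 1 gave 369, and 255 calls were lost in none of the 6 single omissions. Without both GFP low replicates 2 and 3, which leaves GFP low replicate 1 alone, all 686 differences kept their sign. That was fixed beforehand, since the high and low values of these genes did not overlap.

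**Figure D1:**
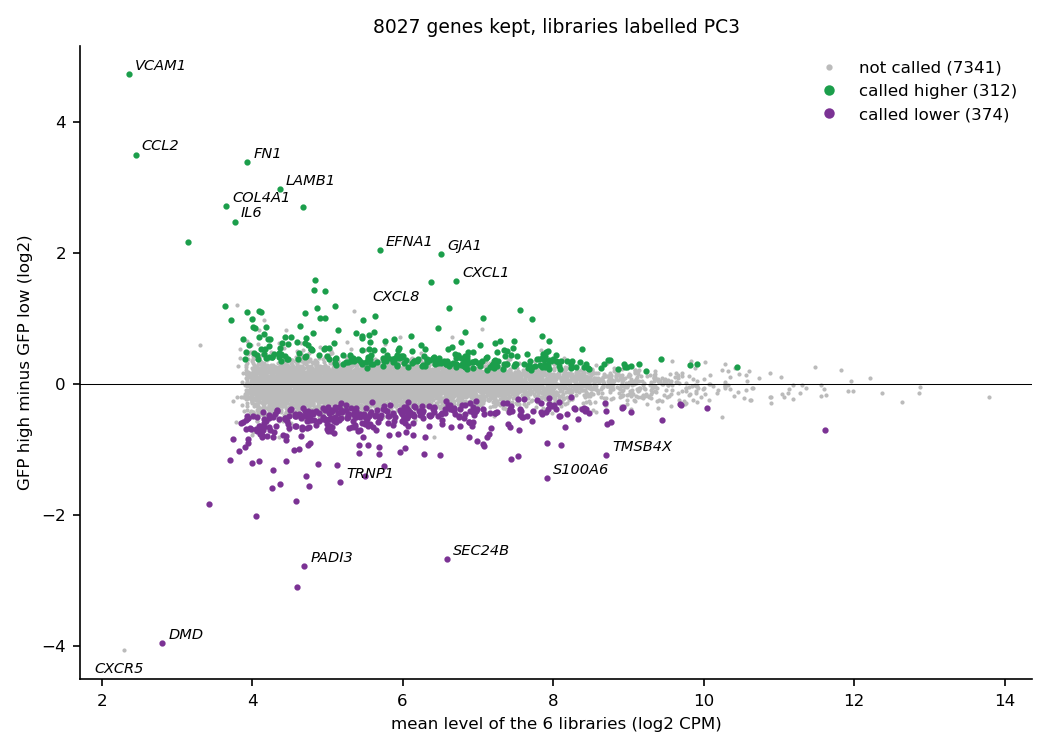
Difference between GFP high and GFP low (log2, vertical axis) against the mean level of the 6 libraries (log2 CPM, horizontal axis) for the 8027 genes kept. Each point is a gene; 312 called higher and 374 called lower are coloured, 7341 not called are grey, and the widest differences lie at low mean levels, with VCAM1 at the top (4.73) and CXCR5, which was not called, at the bottom (-4.07).

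EFNA1, which encodes the membrane-bound ligand ephrin-A1 of the EphA receptors, showed the largest rise among genes with a mean of at least 5 in log2. It stood at 115, 117 and 86.6 CPM in the GFP high libraries and at 22.7, 30.7 and 23.9 CPM in the GFP low libraries, 4.12-fold higher (log2 difference 2.04 ± 0.13, adjusted p = 5.19e-07). The lowest GFP high library thus stood well above the highest GFP low library. The other 3 ephrin and Eph receptor genes kept did not pass. GJA1, which encodes the gap junction protein connexin 43, stood at 183, 185 and 175 CPM against 49.2, 39.5 and 50.1 CPM (log2 difference 1.98 ± 0.34, adjusted p = 0.00291). The groups were far apart here too, but the call was lost when GFP low replicate 1 was the only GFP low library left. The stress-induced secreted glycoprotein gene STC2 stood at 300.1, 302 and 243 CPM against 126, 131 and 127 CPM (1.13 ± 0.09).

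Further down the list of rises were genes of iron uptake, matrix cross-linking and transcription. The transferrin receptor gene TFRC stood at 272, 304 and 316 CPM against 154, 129 and 165 CPM (log2 difference 0.995 ± 0.13, adjusted p = 0.000375). Transglutaminase 2 (TGM2), an enzyme that cross-links matrix proteins, stood at 63.1, 66.0 and 58.0 CPM against 29.3, 40.1 and 27.1 CPM (0.97 ± 0.13). CITED2, a transcriptional coregulator that binds CBP and p300, stood at 75.2, 77.1 and 61.7 CPM against 31.8, 34.1 and 38.6 CPM (1.03 ± 0.12). No high library overlapped a low one for these genes. ANTXR1, an anthrax toxin receptor that binds collagen, rose by 0.85 ± 0.09 and the amino acid transporter gene SLC7A6 by 0.79 ± 0.10. The hair keratin-associated gene KRTAP2-3 rose by 0.82 ± 0.16, a call lost without GFP low replicates 2 and 3 (adjusted p = 0.129). Estimated counts were fractional for SLC7A6 in all 6 libraries and for KRTAP2-3 in 5, which leaves reads shared with other genes possible.

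The largest fall in the same range of levels was that of SEC24B, a cargo-binding subunit of the COPII coat that carries proteins out of the endoplasmic reticulum. It stood at 35.9, 39.2 and 39.5 CPM in GFP high and 257, 205 and 273 CPM in GFP low, 6.38-fold lower (log2 difference -2.67 ± 0.13, adjusted p = 4.51e-08). The gap between the groups was several times the spread within either. None of the other 14 COPII genes kept passed. TMSB4X, which encodes the actin-sequestering peptide thymosin beta-4, stood at 284, 295 and 280.4 CPM against 618, 631 and 574 CPM (-1.09 ± 0.07). TRNP1, a nuclear regulator of cell cycle progression, stood at 24.1, 23.3 and 17.4 CPM against 62.2, 65.6 and 53.3 CPM (-1.49 ± 0.13). Both were lower in every GFP high library than in any GFP low library.

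Among histone methyltransferase and demethylase genes, 37 were kept, 2 were called higher and 2 lower, a share close to the 3.89% and 4.66% over all genes. KDM4A, a histone H3 lysine demethylase, stood at 110.2, 122 and 117 CPM against 261, 273 and 240.0 CPM (log2 difference -1.15 ± 0.07, adjusted p = 4.25e-07), and its relative KDM4B fell by 0.99 ± 0.11. The methyltransferase gene KMT2D rose by 0.44 ± 0.07. WHSC1, another methyltransferase gene, was called at 0.26 ± 0.07, a call lost without any 1 of the 3 GFP high libraries, GFP low replicate 1 or GFP low replicate 2 (highest adjusted p = 0.146). Of 23 glycolysis genes, 1 was called higher and 1 lower, and 6 differences were positive (median -0.08). PFKL, the liver-type subunit of phosphofructokinase, stood at 130.4, 129 and 122 CPM against 262, 312 and 243 CPM (-1.10 ± 0.10), while PFKFB2, whose enzyme makes the activator of phosphofructokinase, was called higher by 0.69 ± 0.15 (adjusted p = 0.0627 without GFP high replicate 2 and 0.169 without GFP low replicates 2 and 3).

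**Figure D2:**
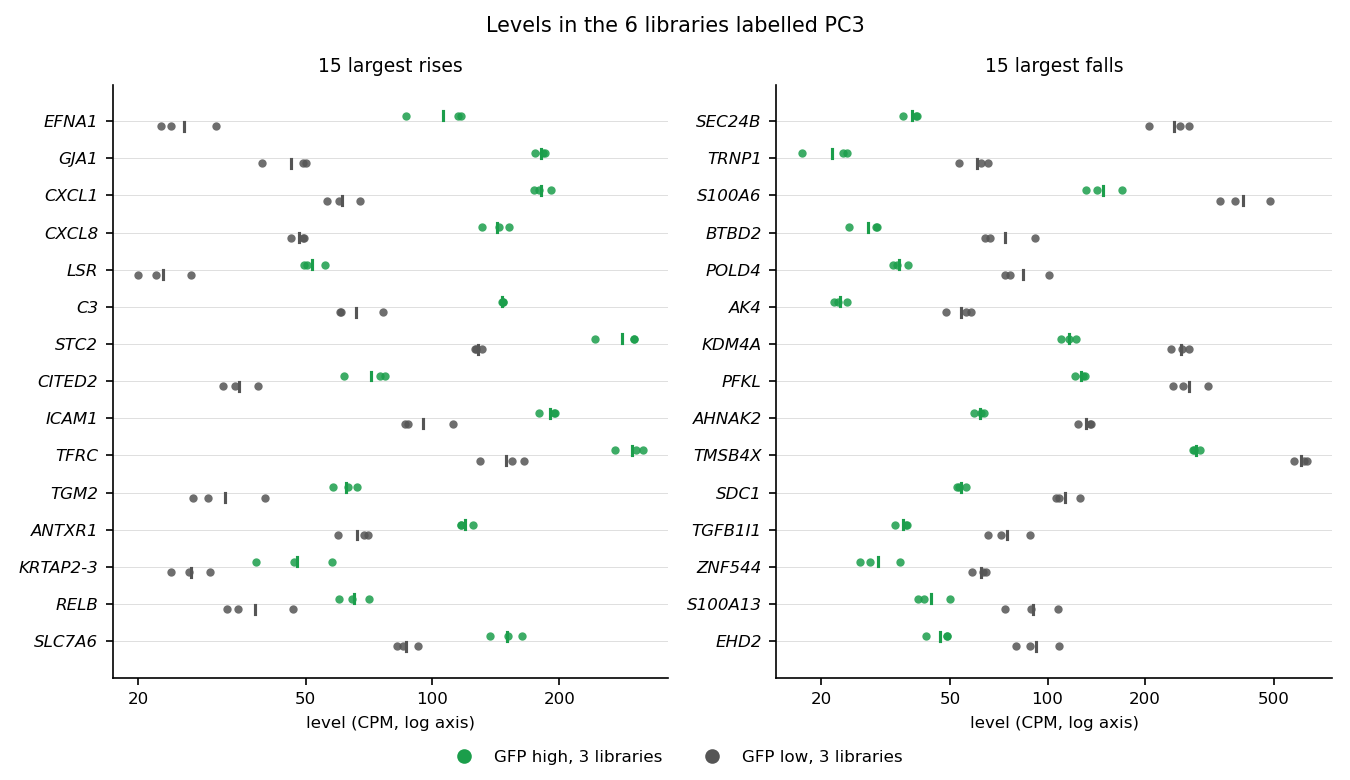
Level in each of the 6 libraries (CPM, log axis) for the 15 largest rises (left) and 15 largest falls (right) among genes called with a mean log2 value of at least 5; points are libraries and short vertical bars are the means of 3. Genes were chosen on the condition that their high and low points do not overlap. The widest gaps are those of EFNA1 (4.12-fold) on the left and SEC24B (6.38-fold lower) on the right.

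Some genes of the NF-kB pathway and several of its inflammatory targets rose in GFP high cells. NF-kB dimers of REL-family subunits are held in the cytoplasm by inhibitors such as NFKBIA until a signal, for example from TNF, releases them to kappa B sites near cytokine, chemokine and adhesion genes. Of 31 NF-kB subunits, inhibitors, regulators and targets kept, 9 rose, 0 fell and 22 were not called, against 3.89% higher and 4.66% lower over all genes, and 28 of the 31 differences were positive. The list median was 0.21, against -0.009 over all genes. Of 7 chemokines and cytokines kept, 5 rose and 0 fell, with a median of 1.55. These lists were chosen with earlier results of these data known, and 2 members of each were kept through GFP high alone (VCAM1, TNFAIP3, CCL2 and IL6), so for those a difference was built into the choice.

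The promoters of several of these genes hold a kappa B consensus in the 300-base window from 250 bases before to 50 after the start, as annotated by RefSeq on GRCh38.p14. They are printed here 5′ to 3′ on the gene's strand, with the match on either strand in capitals. These members of the lists were called higher and hold a match, and CXCL2 is set beside its neighbour CXCL1.

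CXCL1 (chr4:73869294-73869344, plus strand): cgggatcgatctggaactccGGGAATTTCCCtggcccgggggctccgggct
CXCL2 (chr4:74099243-74099293, minus strand): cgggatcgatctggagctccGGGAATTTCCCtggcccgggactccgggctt
VCAM1 (chr1:100719660-100719709, plus strand): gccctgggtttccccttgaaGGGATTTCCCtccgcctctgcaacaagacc
IL6 (chr7:22727107-22727156, plus strand): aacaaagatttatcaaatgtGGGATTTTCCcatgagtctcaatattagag
NFKBIA (chr14:35404801-35404850, minus strand): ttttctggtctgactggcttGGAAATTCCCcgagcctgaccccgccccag
TNFAIP3 (chr6:137867172-137867233, plus strand): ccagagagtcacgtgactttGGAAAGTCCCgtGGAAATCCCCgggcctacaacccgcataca

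The neighbouring chemokine genes CXCL1 and CXCL2 carry the same 11 capital letters at almost the same distance from their starts, and TNFAIP3 carries 2 matches side by side. The windows of NFKB1 and TRAF3 hold a match as well. So do those of REL, NFKBIZ, BCL3, BIRC3 and GDF15, which were not called higher. RELB, CCL2 and LIF had no window. NFKB2, SOD2, ICAM1 and CXCL8 had a window without a match, which says only that these letters are not in it. Over all genes kept with a window (6470) the share was 13.1%, over those called higher 22.2% (52 of 234) and over those called lower 16.6% (48 of 290). A match is a description of the sequence and not of binding.

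CXCL1, a neutrophil attractant, stood at 179, 191 and 174 CPM in GFP high and 59.9, 67.3 and 56.2 CPM in GFP low (log2 difference 1.57 ± 0.09, adjusted p = 3.13e-07). CXCL8, which encodes interleukin 8, stood at 152, 131.1 and 144 CPM against 49.3, 46.2 and 49.6 CPM (1.55 ± 0.12, adjusted p = 2.33e-06). Both were close to 3-fold higher, with each group tight. CCL2, the monocyte attractant, stood at 19.0, 17.5 and 18.8 CPM against 1.49, 1.53 and 1.88 CPM (3.50 ± 0.18), and IL6, a cytokine of the acute phase, at 30.7, 40.3 and 27.1 CPM against 6.09, 5.55 and 5.70 CPM (2.48 ± 0.40). The call of IL6 was lost without GFP low replicates 2 and 3 (adjusted p = 0.0831). LIF, a cytokine of the same receptor family, rose by 0.51 ± 0.07. CXCL2, below the minimum, had 555 against 186 estimated counts (1.30 ± 0.45, adjusted p = 0.121) and did not pass, although its promoter match is that of CXCL1.

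Among adhesion targets, ICAM1 stood at 196, 195 and 179 CPM against 87.5, 112 and 85.9 CPM (log2 difference 1.01 ± 0.10), with fractional estimated counts in every library. VCAM1, which leukocyte integrins bind, stood at 27.4, 25.5 and 26.8 CPM against 0.903, 1.199 and 0.926 CPM (4.73 ± 0.93, adjusted p = 0.00736). VCAM1 had the widest gap of any gene kept, with values close together within each group. Its error was wide, and the model takes the spread from all 12 libraries, those of DU145 included. Its call was lost without GFP high replicate 1 or 3 (highest adjusted p = 0.0629) and without GFP low replicates 2 and 3 (0.116).

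Of the factors themselves, the noncanonical subunit RELB stood at 70.6, 64.6 and 59.9 CPM against 34.5, 46.6 and 32.6 CPM (log2 difference 0.79 ± 0.14), and its partner NFKB2 rose by 0.49 ± 0.10. NFKB1 was called at 0.32 ± 0.08, while RELA (0.06 ± 0.10, adjusted p = 0.799) and REL (0.65 ± 0.31, adjusted p = 0.242) did not pass. Among inhibitors and regulators, NFKBIB, NFKBIE, NFKBIZ, BCL3, TNIP1, TNIP2 and CYLD were not called higher. TNFAIP3, which encodes the deubiquitinase A20 that shuts the pathway off, stood at 21.95, 23.02 and 23 CPM against 11.2, 12.4 and 10.6 CPM (0.995 ± 0.10), NFKBIA was called at 0.43 ± 0.10 and TRAF3, an adaptor that restrains the noncanonical branch, rose by 0.40 ± 0.07. The mitochondrial superoxide dismutase gene SOD2, a classic target, stood at 299.8, 322 and 308 CPM against 199, 189.8 and 199 CPM (0.66 ± 0.06), with fractional counts in every library. The call of NFKB1 was lost without GFP high replicate 1 or 2 or GFP low replicate 3 (highest adjusted p = 0.0858), and that of NFKBIA without GFP high replicate 1 or 2 or GFP low replicate 1 or 3 (0.0837). With GFP low replicates 2 and 3 both left out, NFKB1 (adjusted p = 0.314), NFKB2 (0.0676) and TRAF3 (0.0714) did not pass, nor did VCAM1, while TNFAIP2 did (0.0348, against 0.0556 in all libraries).

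Of 5 complement and acute phase genes kept, 2 were called higher and 1 lower, against 3.89% and 4.66% over all genes. C3, the central complement component, stood at 147, 147 and 146 CPM against 60.4, 76.2 and 60.5 CPM (log2 difference 1.17 ± 0.09), and the long pentraxin gene PTX3 at 43.6, 39.7 and 31.8 CPM against 17.97, 18.6 and 17.4 CPM (1.08 ± 0.11). The groups were apart for both. Of 11 interferon-stimulated genes, 1 was called higher (OAS3, 0.36 ± 0.08) and 0 lower, and the OAS3 call was lost without GFP high replicate 1 or 2 or GFP low replicate 1 (highest adjusted p = 0.0782). In the presentation of peptides on HLA class I, 2 of 14 genes rose, the peptide transporter TAP2 (0.56 ± 0.08) and the trimming peptidase ERAP1 (0.63 ± 0.12). The ERAP1 call was lost without GFP low replicates 2 and 3 (adjusted p = 0.189).

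Several secreted immune genes lay below the minimum and were read from the fit to all 18950 genes, in which 1078 passed (5.69%), 464 higher (2.45%) and 614 lower (3.24%). Genes from this fit, LEF1 and AXIN2 aside, fall outside the naming rule and were chosen after their values were seen. Apart from those of LEF1, WNT7B, CLDN3, CLDN4 and PKP2, the calls described held in each single omission. TNF itself stood at 14.9, 18.2 and 14.9 CPM against 6.20, 7.45 and 6.003 CPM (log2 difference 1.29 ± 0.12, adjusted p = 1.3e-05). IL32 had 460 estimated counts in the GFP high libraries and 104 in GFP low, CSF1, the macrophage growth factor, 300 against 71, and EBI3, a subunit of heterodimeric cytokines, 246 and 33. Serum amyloid A1 (SAA1) had 59 against 12. IFI44L, an interferon-stimulated gene, had 57 counts in GFP high and was listed at 0 in GFP low. IL18, an inflammasome cytokine, went the other way, with 469 against 756 counts (-0.99 ± 0.15, adjusted p = 0.00114). Without GFP low replicates 2 and 3 the call of IL18 was lost (adjusted p = 0.0524).

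Basement membrane genes were called in both directions. Basement membranes are sheets of type IV collagen and laminin linked by nidogen and perlecan. Of 13 genes kept, 5 were called higher and 3 lower, against 3.89% and 4.66% over all genes, with a median of 0.24. COL4A1, which encodes the α1 chain of type IV collagen, stood at 32.5, 32.4 and 32.1 CPM against 4.57, 5.61 and 4.69 CPM (log2 difference 2.71 ± 0.10, adjusted p = 2.58e-09). COL4A2, the α2 chain with which it assembles, stood at 64.1, 67.2 and 64.9 CPM against 9.58, 11.9 and 8.99 CPM (2.70 ± 0.10). The pair moved by almost the same factor. LAMB1, the laminin β1 chain, stood at 58.6, 55.4 and 59.5 CPM against 6.55, 6.83 and 8.93 CPM (2.97 ± 0.15). These 3 genes were kept through GFP high alone, so their part in the count was built into the choice of genes.

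COL4A1 and COL4A2 lie head to head on chromosome 13. In RefSeq on GRCh38.p14 their starts are at 110307157 (minus strand) and 110307284 (plus strand), 127 bases apart, so that 1 stretch lies in front of both. It is shown because both genes rose together, on the strand of COL4A2 and ending at the base before its start.

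COL4A2 and COL4A1 (chr13:110307164-110307283, plus strand): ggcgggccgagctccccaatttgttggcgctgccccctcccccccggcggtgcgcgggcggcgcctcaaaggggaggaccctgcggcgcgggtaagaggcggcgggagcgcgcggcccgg

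The laminin β2 chain gene LAMB2 fell, at 96.9, 95.4 and 91.2 CPM against 161, 194 and 162 CPM (log2 difference -0.86 ± 0.10), and the groups did not overlap. The partner chains LAMC1 (-0.07 ± 0.08, adjusted p = 0.7102) and LAMA5 (-0.07 ± 0.08, adjusted p = 0.662) did not pass. HSPG2, which encodes perlecan, rose by 0.63 ± 0.07. NID1 (nidogen, 0.42 ± 0.12), COL18A1 (-0.33 ± 0.09) and TINAGL1 (-0.59 ± 0.15) were called, each call being lost without most single libraries (highest adjusted p = 0.126, 0.147 and 0.114), and 1 or 2 members of the list were called lower in each omission, against 3 in all libraries. Outside the basement membrane, fibronectin (FN1) stood at 46.6, 51.2 and 50.7 CPM against 4.46, 5.66 and 4.21 CPM (3.39 ± 0.22, adjusted p = 5.19e-07), the gene likewise kept through GFP high alone. COL3A1, a fibrillar collagen and fibroblast marker below the minimum, had 169 counts against 1. The fibroblast list as a whole summed to 4.001 to 5.09 CPM in GFP high and 2.30 to 4.09 CPM in GFP low over 9 genes, with COL1A1 at 39 against 56 counts and 3 of the 9 at 0 in every library. Whether such cells took part in these differences was not tested.

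Of 20 TGF-beta response and mesenchymal genes kept, FN1 was the 1 that rose and 5 were called lower. Over all genes the shares were 3.89% and 4.66%. The part of FN1 was built into the choice of genes, as it was kept through GFP high alone. SERPINE2, an inhibitor of thrombin and plasminogen activators, stood at 53.6, 59.7 and 48.8 CPM against 93.2, 89.8 and 93.7 CPM (log2 difference -0.78 ± 0.09). ID1, a BMP target, stood at 103, 103 and 85.6 CPM against 148, 152 and 133 CPM (-0.57 ± 0.10), a call lost without GFP low replicates 2 and 3 (adjusted p = 0.0501). The type II receptor gene TGFBR2 was called at -0.48 ± 0.10 (adjusted p = 0.0645 without GFP high replicate 1 and 0.0638 without GFP low replicates 2 and 3). The lower count was 3 without GFP high replicate 1 and 1 without GFP low replicates 2 and 3. Among 6 integrin subunits, ITGA5, the fibronectin receptor chain, rose by 0.55 ± 0.10 and ITGA3, a laminin receptor chain, fell by 0.55 ± 0.08. The cell-surface proteoglycan syndecan-1 (SDC1) stood at 52.6, 53.4 and 56.2 CPM against 106, 126 and 108 CPM (-1.07 ± 0.10). All 3 GFP high libraries lay at about the same level.

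Of 20 junction genes kept, 5 were called higher, 2 lower and 13 not, against 3.89% and 4.66% over all genes. The genes called higher included GJA1 above, LSR, MARVELD1 and F11R. LSR, a tricellular tight junction protein, stood at 55.7, 49.6 and 50.3 CPM against 20, 26.7 and 22.1 CPM (log2 difference 1.19 ± 0.12). MARVELD1, a membrane protein gene of the junction list, rose by 0.64 ± 0.08. F11R was called at 0.38 ± 0.09, a call lost in each of the 6 single omissions (highest adjusted p = 0.119). Those called lower were PPL and PERP, known from desmosomes and the cornified envelope. Periplakin (PPL) stood at 16.8, 15.7 and 16.2 CPM against 44.2, 47.1 and 38.1 CPM (-1.41 ± 0.17), and PERP, kept through GFP low alone, at 11.2, 9.96 and 8.82 CPM against 20.99, 18.8 and 20.7 CPM (-1.02 ± 0.12). The part of PERP in the count was thus built into the choice of genes. Below the minimum, P-cadherin (CDH3) had 2 counts against 52, the tight junction genes CLDN3 and CLDN4 had 7 against 48 and 49 against 165, and the desmosomal gene PKP2 had 708 against 320. All 4 passed, but the calls of CLDN3, CLDN4 and PKP2 were each lost in 4 or 5 single omissions (highest adjusted p = 0.155, 0.104 and 0.096).

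The GJA1 promoter holds an AP-1 consensus (TGANTCA, searched on both strands), shown in capitals 48 to 42 bases before the start. It is printed because GJA1 had the second largest rise at its level, and the match is a description only. The same letters occur in 3.802% of the windows of the genes kept, in 5.13% of those called higher and 4.48% of those called lower.

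GJA1 (chr6:121435578-121435624, plus strand): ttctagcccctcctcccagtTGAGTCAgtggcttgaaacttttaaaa

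S100 genes, which encode small calcium-binding proteins and lie together on chromosome 1, fell. Of 7 listed genes kept, 6 fell and 0 rose, against 4.66% and 3.89% over all genes, with a median of -0.65. The other, S100PBP (-0.11, adjusted p = 0.689), encodes a binding partner and not an S100 protein. S100A6 stood at 142, 170.3 and 132 CPM against 379, 487 and 341 CPM (log2 difference -1.44 ± 0.15, adjusted p = 5.68e-05). S100A2 stood at 12.3, 13.4 and 8.17 CPM against 29.2, 38.7 and 32.7 CPM (-1.59 ± 0.19). It was kept through GFP low alone, so its part in the count was built into the choice of genes. S100A13 stood at 41.7, 49.9 and 39.8 CPM against 89.0, 108 and 73.9 CPM (-1.03 ± 0.14), with fractional counts in 5 libraries. For each of the 6, every GFP high library was below every GFP low library. S100A10, a partner of annexin A2, fell by 0.65 ± 0.09 and S100A16 by 0.61 ± 0.10. S100A11 was called at -0.34 ± 0.09 and was lost without any GFP high library, GFP low replicate 1 or GFP low replicate 2 (highest adjusted p = 0.127). Keratins kept were 3, of which KRT8 (-0.53 ± 0.10) and KRT80 (-0.48 ± 0.10) were called lower. The KRT80 call was lost without GFP high replicate 3 (adjusted p = 0.0569), and both were lost without GFP low replicates 2 and 3 (0.0656 for KRT8 and 0.129 for KRT80).

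Of 10 metalloproteinases, plasminogen activators and inhibitors kept, 1 was called higher and 4 lower, against 3.89% and 4.66% over all genes. Among those called, 1 was kept through 1 group alone, so its part in the count was built into the choice of genes. Urokinase (PLAU), which activates plasminogen at the cell surface, stood at 94.8, 105 and 91.5 CPM against 144.0, 170.4 and 142 CPM (log2 difference -0.65 ± 0.09), with no overlap. TIMP1 (-0.46 ± 0.13), an inhibitor of metalloproteinases, and MMP17 (-0.42 ± 0.12) were called lower and MMP14 (0.47 ± 0.11) higher. These 3 calls were each lost without 4 or more of the 6 libraries (highest adjusted p = 0.126, 0.1602 and 0.0764), and the lower count was 2 without any 1 library but GFP low replicate 3. Below the minimum, the collagenase gene MMP1 had 75 counts against 227, MMP2 had 36 against 1 and TIMP2 had 203 against 47. Of 11 genes of the insulin-like growth factor axis, 4 were called higher and 0 lower. IGFBP3, which binds the growth factors in serum, stood at 47.2, 49.8 and 43.5 CPM against 17.6, 16.2 and 17.95 CPM (1.44 ± 0.17). STC2, which inhibits the protease PAPPA, and IGF2BP1 (0.38 ± 0.06) rose too, and the receptor gene IGF1R was called at 0.41 ± 0.09. The IGF1R call was lost without GFP high replicate 2 or 3 or GFP low replicate 1 (highest adjusted p = 0.0751). PAPPA had 479 against 73 counts and IGFBP6 140 against 670. Without GFP low replicates 2 and 3 the calls of IGF2BP1 (adjusted p = 0.0625) and PAPPA (0.0547) were lost.

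Growth factor and Notch genes that differed did so on both sides of the minimum. The EGF receptor ligand amphiregulin (AREG) stood at 0.806, 1.05 and 1.32 CPM against 6.61, 6.497 and 5.88 CPM (log2 difference -2.61 ± 0.24, adjusted p = 1.56e-05). ERBB2, a receptor of the same family and above the minimum, fell by 0.54 ± 0.09, a call lost without GFP low replicates 2 and 3 (adjusted p = 0.0501). The Notch ligand JAG2 had 462 counts against 787 and the Notch target HES1 had 392 against 804. Of 12 Notch genes kept, 1 was called higher and 1 lower. Of 19 ERK feedback genes and EGF receptor ligands kept, 2 were called higher and 1 lower. Over all genes the shares were 3.89% and 4.66%. EGR1, the immediate early transcription factor, stood at 98.4, 106 and 113 CPM against 178, 194 and 184 CPM (-0.81 ± 0.11). Of 19 AP-1 and immediate early genes, 2 were called higher and 2 lower. Of 22 genes of the YAP and TEAD factors and their targets, 2 were called higher and 2 lower. The kinase gene NUAK2 rose by 0.74 ± 0.09 and DLC1, a GTPase-activating protein gene, fell by 0.48 ± 0.09, with ANKRD1 at 476 against 70 counts below the minimum. The DLC1 call was lost without GFP low replicates 2 and 3 (adjusted p = 0.0656).

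Stress lists held calls mostly on the lower side. Of 21 hypoxia response genes, 1 was called higher and 4 lower, against 3.89% and 4.66% over all genes, with a median of -0.14 and 12 at an unadjusted p under 0.05. DDIT4, an inhibitor of mTORC1, stood at 16.6, 18.7 and 22.6 CPM against 41.4, 56.5 and 38.1 CPM (log2 difference -1.22 ± 0.17). The adenylate kinase gene AK4 (-1.24 ± 0.11, fractional counts in every library) and the mitophagy gene BNIP3 (-0.48 ± 0.08) fell, and the secreted lipase inhibitor gene ANGPTL4 was called at -0.57 ± 0.13. The hypoxia-inducible factor gene EPAS1 had 155 counts against 477. The ANGPTL4 call was lost without GFP high replicate 2 or 3 or GFP low replicate 2 (highest adjusted p = 0.0805), and those of BNIP3 (0.09925) and EPAS1 (0.068) without GFP low replicates 2 and 3. Of 37 heat shock and chaperone genes, 1 was called higher and 6 lower. SERPINH1, the collagen chaperone, stood at 59.1, 62.6 and 56.7 CPM against 104, 114 and 94.8 CPM (-0.81 ± 0.08). The near-identical inducible genes HSPA1A (-0.65 ± 0.18) and HSPA1B (-0.51 ± 0.14) had fractional counts in every library, so reads may be split between them, and GFP high replicate 3 lay close to the GFP low libraries. Both calls were lost in 5 single omissions (highest adjusted p = 0.179). With GFP high replicate 1 left out, 1 gene of this list was called lower, and with GFP high replicate 2 or GFP low replicate 1 left out, 2 were. The ATF4 and unfolded protein list had 2 of 29 higher and 1 lower, with the transcription factor gene ATF5 at 0.69 ± 0.11.

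Small shifts in 1 direction ran through lists of growth and energy genes. Of 52 genes of G2 and mitosis, 7 were called higher and 0 lower, against 3.89% and 4.66% over all genes. Of the differences 46 were positive, and the median was 0.15. The lists that follow are to be read against the same shares. ESPL1, which encodes the protease that separates sister chromatids, stood at 168, 169.8 and 173 CPM against 129, 136 and 131 CPM (log2 difference 0.36 ± 0.07), and FOXM1, a transcription factor of mitotic genes, was called at 0.34 ± 0.07. The FOXM1 call was lost without GFP high replicate 1 or 2 (highest adjusted p = 0.0556) and that of ESPL1 without GFP low replicates 2 and 3 (0.0759). The count of the list was 12 with the replicate block, 1 without GFP high replicate 1 or 2, and 3 with GFP low replicate 1 left out. Without both GFP low replicates 2 and 3 it was 0. Of 53 S phase genes, 43 differences were positive (median 0.09), with 2 called higher and 1 lower. Ribosomal protein genes were on the other side, with a median of -0.15, 5 of 78 differences positive and 0 called by limma, with 8 at an unadjusted p under 0.05 and 2 called lower with the block. The 72 nuclear-encoded genes of oxidative phosphorylation had a median of -0.14, 9 positive differences and 1 call, lower (6 lower with the block). After removal of the GC and length trend, these medians were -0.08 and -0.05, while that of G2 and mitosis was 0.17. The counts called higher were then 23 for G2 and mitosis and 13 for S phase. The part that GC content played in these shifts was not tested. Of 33 cholesterol and fatty acid synthesis genes, 2 were called higher and 1 lower. INSIG1, the sterol-sensing anchor, rose by 0.38 ± 0.07, a call lost without GFP low replicates 2 and 3 (adjusted p = 0.1275).

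**Figure D3:**
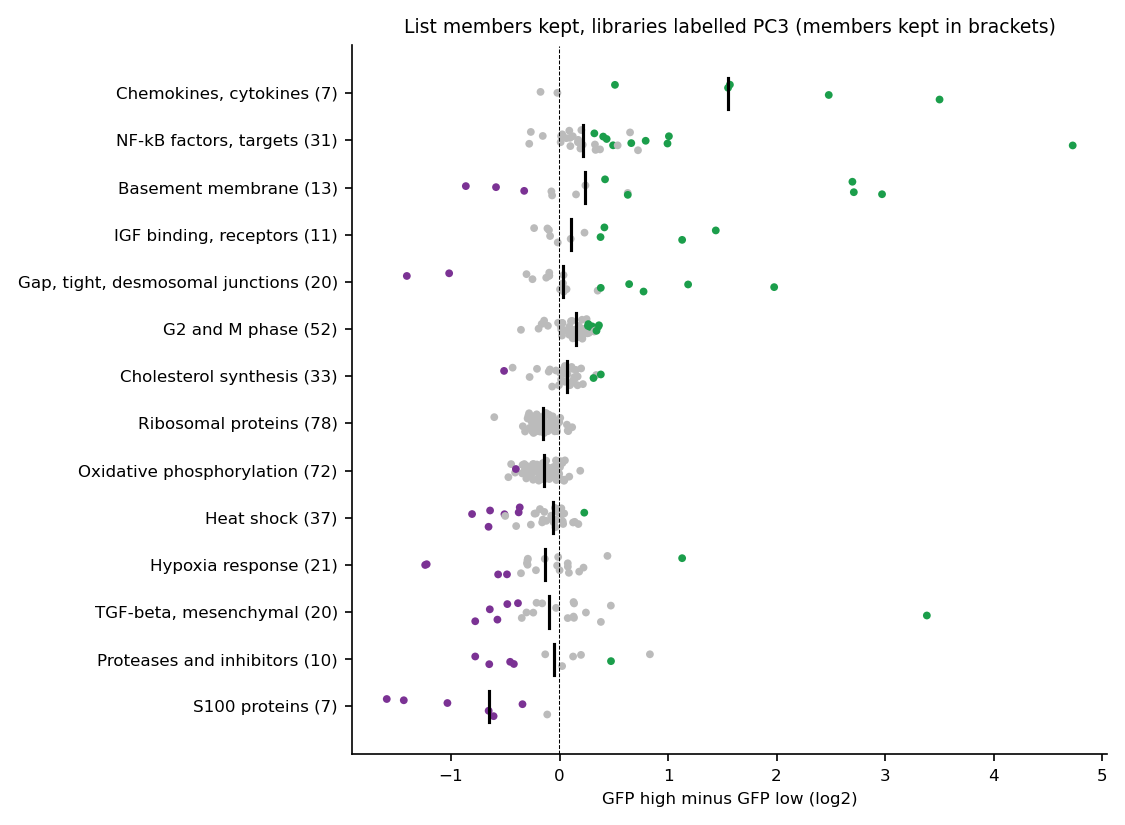
Difference between GFP high and GFP low (log2, horizontal axis) for the kept members of selected gene lists, each point a gene, green where called higher, purple where called lower and grey where not called; black bars are list medians and the dashed line is the median of all genes. Chemokines and cytokines (median 1.55) lie to the right and S100 genes (median -0.65) to the left, while ribosomal (-0.15) and oxidative phosphorylation genes (-0.14) form narrow clouds just left of the line.

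The pathway that the sort was built on had few calls that held in every omission. Of 22 Wnt feedback and direct target genes, 4 were kept, ZNRF3, CCND1, MYC and PTPRK. CCND1, which encodes cyclin D1, stood at 401, 395 and 362 CPM against 338, 314 and 339.8 CPM (log2 difference 0.22 ± 0.06, adjusted p = 0.0459). That call was lost in 5 of the 6 single omissions (all but GFP high replicate 3, highest adjusted p = 0.193). MYC stood at 176, 186 and 177 CPM against 194, 192 and 188 CPM (-0.09 ± 0.06, adjusted p = 0.366). The β-catenin gene CTNNB1 stood at 349, 383 and 341 CPM against 331, 298 and 332 CPM (0.16 ± 0.07, adjusted p = 0.234), and TCF7L2, the main TCF factor of many epithelia, overlapped between groups (0.13 ± 0.13). Among feedback genes below the minimum, LEF1 stood at 5.14, 4.16 and 3.92 CPM against 1.66, 0.920 and 1.70 CPM, higher in every GFP high library. Its call (adjusted p = 0.022) was lost without any 1 of the GFP high libraries or GFP low replicate 2 (highest adjusted p = 0.107) and without GFP low replicates 2 and 3 (0.283). AXIN2 stood at 0.944, 0.994 and 0.585 CPM against 1.19, 0.418 and 0.568 CPM and overlapped. NOTUM had 62 counts against 56, DKK1 346 against 340 and TCF7 402 against 434, and LGR5 and RNF43 had 1 and 3 counts in all.

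Of 28 Wnt pathway components kept, 2 were called higher and 3 lower (median 0.06), against 3.89% and 4.66% over all genes. DKK3, a secreted member of the Dickkopf family, stood at 141, 144 and 127 CPM against 210.4, 218 and 201 CPM (log2 difference -0.61 ± 0.07, adjusted p = 0.000154). The coreceptor gene LRP5 (-0.33 ± 0.09), PORCN, whose product adds the lipid that Wnt ligands need (-0.43 ± 0.12), the β-catenin cofactor BCL9L (0.27 ± 0.07) and the corepressor TLE4 (0.27 ± 0.08) were called as well. Each of these 4 calls was lost in at least 5 of the 6 single omissions (highest adjusted p = 0.128, 0.153, 0.113 and 0.212), and in each omission no more than 1 component was called higher. Below the minimum, the ligand gene WNT7B had 194 counts against 51, a call lost without GFP high replicate 1 or 3 or GFP low replicate 1 (highest adjusted p = 0.106). The corepressor gene TLE2 had 5 counts against 30 (log2 difference -2.93 ± 0.53, adjusted p = 0.00404), a call lost without GFP low replicates 2 and 3 (0.063). The TCF/LEF core CTTTGA, searched on both strands, occurred in the windows of 11.5% of genes called higher (27), 6.55% of genes called lower (19) and 7.71% of all genes kept. Among genes called with at least a 2-fold difference it occurred in 7 of 24 windows of those higher (29.2%) and 3 of 25 of those lower. In the same windows the kappa B consensus occurred in 7 of those higher and 4 of those lower. The AP-1 consensus occurred in 4 and 3.

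Differences also gathered by chromosome. Positions come from GENCODE 29 on GRCh38. On chromosome 14, 3 of 266 genes kept were called higher and 29 lower (12.03% called, against 8.55%), and 228 differences were negative (85.7%), with a median of -0.17. The median deviation of the chromosome's genes was -0.074, -0.089 and -0.071 in the GFP high libraries and 0.10, 0.048 and 0.10 in the GFP low libraries, so the 3 libraries of each group stood on the same side. The median was -0.18 with the GC and length trend removed, -0.20 without GFP low replicates 2 and 3, and 0.014 in DU145. AHNAK2, a large scaffold protein gene on this chromosome, stood at 63.7, 62.4 and 59.2 CPM against 124, 135 and 136 CPM (log2 difference -1.09 ± 0.07).

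On the first 60 megabases of the X chromosome, 1 of 94 genes was called higher and 23 lower (25.5%), and 87 differences were negative (92.6%), with a median of -0.31. The median deviations were -0.13, -0.13 and -0.15 in GFP high and 0.13, 0.21 and 0.063 in GFP low. Beyond 60 megabases 5 of 149 genes were higher and 4 lower, with a median of -0.02. TMSB4X, PORCN and TIMP1 lie on the first stretch, as does DMD, which encodes dystrophin. DMD stood at 2.33, 1.64 and 1.45 CPM against 29.03, 21 and 34.0 CPM (log2 difference -3.96 ± 0.26), the widest fall among genes called, and was kept through GFP low alone. It was named after its values were seen. The median of the stretch was -0.24 with the GC and length trend removed. It was -0.29 without GFP low replicates 2 and 3 and -0.15 in DU145. In DU145, 7 of the 94 genes were called higher and 22 lower. Over all genes kept, 1303 of 8023 were called higher there and 1730 lower, with a median of -0.06. The number of gene copies was not measured, and its part in these blocks was not tested. On chromosome 18 the median was 0.13, but it was 0.05 without GFP low replicates 2 and 3, and in DU145 it was 0.36. Chromosome 21 had the largest share called of any chromosome (17.07%), with 7 of 82 genes higher and 7 lower. At 60 to 80 megabases of chromosome 11, 7 of 208 genes were called higher and 30 lower (17.8%). The median there was -0.15, against -0.09 with the GC and length trend removed and -0.17 in DU145.

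**Figure D4:**
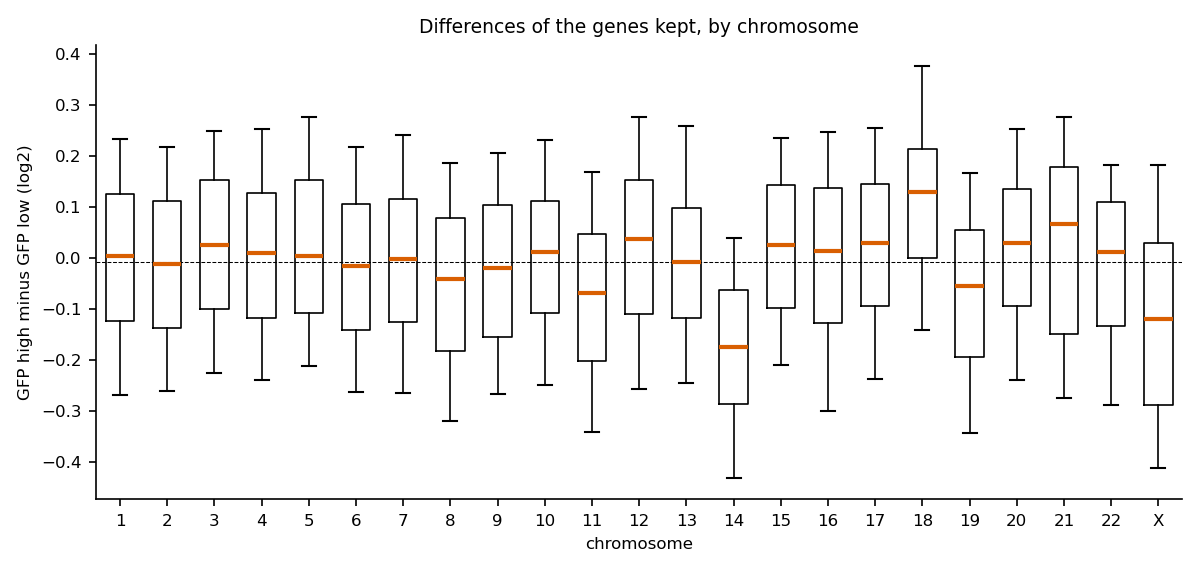
Difference between GFP high and GFP low (log2, vertical axis) of the genes kept, by chromosome; boxes span the quartiles, whiskers the middle 80% of genes, orange bars are medians and the dashed line is the median of all genes. Chromosome 14 (median -0.17) and X (-0.12) lie lowest and chromosome 18 (0.13) highest.

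Further wide differences lay outside the lists and the naming rule and were chosen after their values were seen. PADI3, which converts arginine to citrulline in proteins, stood at 10.5, 9.64 and 9.34 CPM against 67.1, 78.3 and 58.9 CPM (log2 difference -2.78 ± 0.12, adjusted p = 1.26e-08). C21orf2 stood at 8.31, 8.42 and 8.12 CPM against 68.2, 75.7 and 69.3 CPM (-3.10 ± 0.14), with fractional counts in every library. Both were kept through GFP low alone. FEZ1, a kinesin adaptor of nerve cells, stood at 50.3, 49.6 and 48.9 CPM against 16.6, 19.0 and 14 CPM (1.60 ± 0.11), and RAB3B, a GTPase of regulated secretion, at 50.9, 49.6 and 53.0 CPM against 20.3, 17.0 and 19.98 CPM (1.42 ± 0.14). Each group was tight for all 4 genes.

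The sort in DU145 gave another picture. Of the same 8027 genes, 3034 passed there (37.8%). Of the 686 called in the libraries labelled PC3, 110 were also called in DU145 in the same direction, 134 in the opposite direction and 442 were not called. The difference between the lines was itself tested, and 1514 genes passed (18.9%), among them 388 of the 686. By that test 234 of the 312 risen genes had a higher and 151 of the 374 fallen genes a lower difference than in DU145. With single libraries left out, the count of 1514 ran from 808 (PC3 GFP high replicate 2 or DU145 GFP low replicate 1) to 3032 (DU145 GFP high replicate 3). All 15 rises and 15 falls plotted above by library passed this test. The test contains the difference here, by whose size these genes were chosen, so their passing was largely built in. The 388, 234 and 151 genes were likewise picked by their calls here. GJA1 rose here and fell in DU145 (log2 differences 1.98 and -1.45), where its group means were 0.364 and 0.98 CPM. EGR1 fell here and rose there (-0.81 and 1.26), as did SDC1 (-1.07 and 0.44). FN1 rose in both (3.39 and 2.28), as did IGFBP3 (1.44 and 0.82). COL4A1 did not pass in DU145 (-0.22, adjusted p = 0.0869), and of the 7 chemokines and cytokines 0 rose and 4 fell there. ALDH1A1, a stem cell marker gene, was called lower in both (-1.56 and -1.58), but its call here was lost in 5 of 6 single omissions (highest adjusted p = 0.0865).

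**Figure D5:**
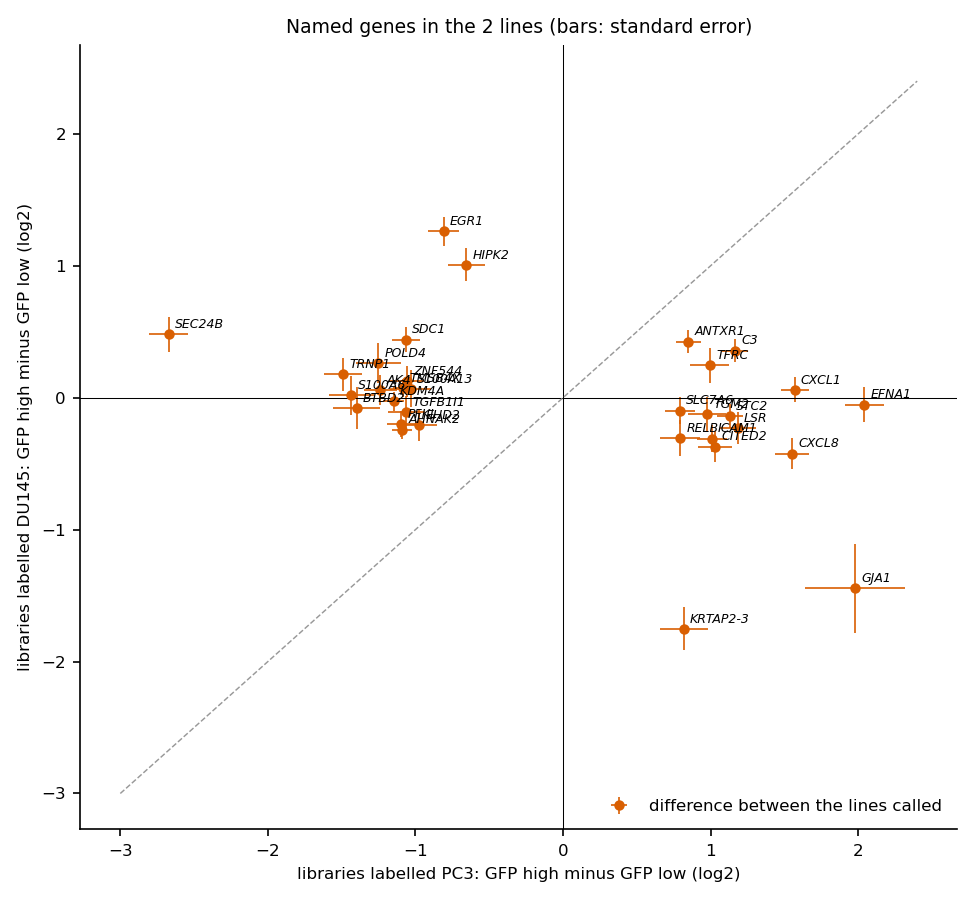
Difference between GFP high and GFP low (log2) in the libraries labelled DU145 (vertical axis) against those labelled PC3 (horizontal axis) for the named rises and falls and the line differences reported; bars are standard errors and the dashed line marks equal differences. Most points lie close to the horizontal axis, with GJA1 (1.98, -1.45) and EGR1 (-0.81, 1.26) far from equality.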

How the data were processed

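RNA from sorted cells of 2 lines was sequenced in 12 libraries. Per the labels, total RNA was extracted on columns. STAR and DESeq2 are named in the submitters' processing notes, with neither a build nor a counting method in the labels. The authors deposited log2 normalized values per gene; from the values, they are log2 CPM (counts scaled to a common total) with 0.5 counts added, and 82.5% (median over libraries) of the counts recovered from them were whole within 0.01. Levels in CPM are these values taken out of the log2 scale. Genes reaching 4 (log2) in 3 or more of the 6 libraries labelled PC3 were fitted with limma 3.58.1 in R 4.3.3 (4 group means over 12 libraries, variance trend, 8 residual degrees of freedom). The two-sided test was adjusted by Benjamini-Hochberg over all 8027 genes, with a threshold of 0.05. On simulated data for this comparison (8027 genes), 71.3% of 1.5-fold, 91.9% of 2-fold and 99.5% of 4-fold changes were recovered, with 5.45% false calls. The simulated noise was independent for each gene, without deviations that run through a whole library, such as those that followed GC content. The share of false calls with such deviations was not tested.

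The genes, members and lists were chosen with earlier results of these data known. Named genes were the top 15 rises and top 15 falls by size, among called genes without overlap between groups and with mean log2 of 5 or more. To these were added up to 5 members of each list with the smallest p, 6 Wnt genes, and the 5 highest and 5 lowest differences between lines among called genes that reach the same mean. Some genes of these groups are not reported here. Other genes were named after their values were seen, list members beyond those 5 included. Deviations of libraries with the same replicate number correlated at 0.116, 0.559 and 0.523, so the numbers were taken to pair the libraries; the labels state no pairing, and libraries with different numbers reached 0.280. The fit reported has no block. Promoter windows were read from RefSeq (GRCh38.p14; 6470 genes kept matched) and positions from GENCODE 29 (8023 matched). Alternatives tried were the block, other minimums, scalings, variance models, a GC and length correction, and leaving out libraries.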

Additional observations from a re-analysis of the deposited data

Results flagged for a closer look

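The difference between sorted populations itself differed between the lines for many named genes, by the test of that difference in the same limma model. The 9 given here are the most positive and most negative ones reported among called genes with a mean log2 value of 5 or more, and genes at lower levels, such as CCL2, differed by more. The effect here minus that in DU145 was 2.09 (log2) for EFNA1, 3.42 for GJA1, 1.51 for CXCL1, 1.98 for CXCL8 and 2.57 for KRTAP2-3. It was -3.15 for SEC24B, -1.67 for TRNP1, -2.07 for EGR1 and -1.66 for the kinase gene HIPK2. EFNA1 barely differed in DU145 (-0.05), so that nearly all of its value comes from the libraries labelled PC3. HIPK2 fell here (-0.65 ± 0.13) and rose in DU145 (1.01).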

How the results depend on the processing

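Every comparison rests on 3 libraries a group, or on fewer where libraries are left out, down to GFP low replicate 1 alone. The number of calls moved with the processing. Of the 118 named genes that were called, 0 changed direction under any alternative run. Leaving out libraries could not change a direction, because the groups of every called gene did not overlap. Genes called (686, 312 higher and 374 lower, and 1514 for the difference between lines) became 1063, 441, 622 and 2741 with the replicate block, which kept all 118 named calls. They became 1078, 464, 614 and 1693 with no minimum, and 370, 192, 178 and 941 with a minimum of 6. Quantile normalization gave 1115, 576, 539 and 1107, and equal medians 580, 297, 283 and 1373. The share of lower calls was 54.5% in the fit reported, 48.8% with equal medians and 48.3% with quantile normalization. Array weights gave 4445, 1940, 2505 and 5955, but limma warned that the weights had not converged. Removing the GC and length trend gave 1840, 960, 880 and 2327, and 2116, 1084, 1032 and 2778 together with the replicate block. At an adjusted p under 0.01 the numbers were 260, 118, 142 and 505. Leaving out 1 library gave 310 to 670 calls, 127 to 246 higher and 175 to 430 lower, and 808 to 3032 for the difference between lines. That last count was highest without DU145 GFP high replicate 3 (3032) and PC3 GFP low replicate 2 (2786). It was 808 without DU145 GFP low replicate 1 or PC3 GFP high replicate 2, 836 without DU145 GFP low replicate 3, 907 and 912 without DU145 GFP high replicates 1 and 2, and 889, 828 and 897 without PC3 GFP high replicate 1, GFP low replicate 1 and GFP low replicate 3. Without both GFP low replicates 2 and 3 the numbers were 154, 76, 78 and 851, and 55 of the 118 named calls were lost. The cause of these shifts was not tested, beyond the fewer libraries or genes that some alternatives hold. Leaving out 1 library in the fit with no minimum, an alternative chosen after seeing the data, gave 614 to 1078 calls, and 475 without both GFP low replicates.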
